A study of Mus musculus with 2 samples.

Results

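The cells described here are the epithelial cells of control lung organoids that scored highest for a set of keratin and stress-response genes linked to the transitional state between alveolar type 2 (AT2) and alveolar type 1 (AT1) cells. They were chosen from measured values. Control barcodes were kept when their UMIs (unique molecular identifiers, each standing for 1 captured transcript) of Epcam, Cdh1, Cldn3, Cldn7 and Krt18 together exceeded those of the stromal genes Col1a2, Col3a1, Sparc and Dcn, when the AT1 genes Hopx, Rtkn2 and Akap5 summed to at most 2 UMIs, and when the cell cycle genes Mki67, Top2a, Cdk1, Birc5 and Ube2c summed to at most 2 UMIs. Of 2101 control barcodes, 830 passed. The 83 members are the top 10% of these on a score, the mean ln(1 + UMIs per 10000) of Krt8, Krt19, Cldn4, Sprr1a, Sfn and Lgals3. They are called high-score cells, and the 747 remaining cells are called the other 90%. The 109 epithelial barcodes with 4 or more UMIs of the AT1 genes served as AT1 cells. A further 250 control barcodes with 4 or more of these UMIs lay outside the epithelial gate and entered an alternative only. Both libraries of the series together held 5167 barcodes.

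The organoids were grown from lung cells of C57BL/6 mice in which SPC-CreERT2, driven by the promoter of the AT2 gene Sftpc, had marked AT2 cells with tdTomato after tamoxifen, and they were co-cultured with lung stromal cells. Of the cultures, 1 received PBS (control) and the other IL-1b, and each gave 1 library of droplet-based single-cell RNA sequencing. The dose of IL-1b and the day of harvest differ between the sources and are not used. The control library held 33965848 UMIs with a median of 14613 per barcode, and the IL-1b library held 41220175 UMIs in 3066 barcodes with a median of 11496.5. With 1 library per condition no test between conditions or cell groups was possible, since cells of a library are not replicates. Levels are UMIs of a gene summed over the cells of a group per 1000000 UMIs of that group (CPM), and the 95% intervals given in parentheses cover counting error only. Across the libraries 11 barcode sequences were shared, and 0 of these belonged to high-score cells.

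AT2 cells make surfactant and are the progenitors of the alveolar epithelium, and AT1 cells are the thin cells through which gas exchange takes place. After lung injury AT2 cells pass through an intermediate state on the way to AT1 cells, which is known for the simple epithelial keratins Krt8 and Krt19, the tight junction protein Cldn4, the cornified envelope precursor Sprr1a, the p53 target Sfn and the galectin Lgals3. Cells in that state are known to have lost much of their surfactant gene expression and to carry p53, hypoxia and inflammatory signatures.

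The score formed a continuous range without a gap at the cutoff. The lowest-scoring member had 0.733931 and the next cell below it 0.733712. Within 0.05 of the cutoff lay 24 members and 31 of the other cells. The members' scores had quartiles of 0.778, 0.849 and 0.972 and reached 2.21, against a median of 0.392 in the other 90%. The class is therefore a range of a score. AT1 cells had a median score of 0.639, and 45 of 109 lay at or above the cutoff.

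**Figure D1:**
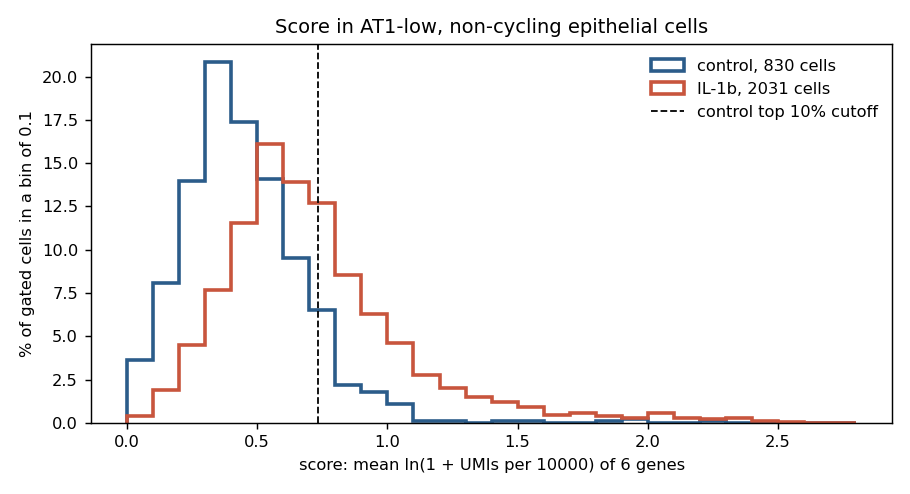
Distribution of the 6-gene score (horizontal axis, mean ln(1 + UMIs per 10000)) in gated epithelial cells of the control and IL-1b libraries, with the control cutoff marked. The control cells tail off through the cutoff without a gap, and 39.7% of the 2031 gated IL-1b cells lie at or above it.

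The score genes were carried unevenly. Krt8 stood at 560 CPM in the high-score cells, at 235 CPM in the other 90% and at 663 CPM in AT1 cells. Krt19 stood at 215, 64.9 and 283 CPM in the same order. Both keratins were broad, with UMIs of Krt8 in 82 and of Krt19 in 75 of the 83 cells. Lgals3 was found in 81 cells at 666 CPM, against 139 CPM in the other 90%. Sfn was found in 64 cells at 187 CPM, against 35.5 CPM. The remaining genes were restricted. Sprr1a was found in 13 cells and Cldn4 in 10, and the 8 highest-scoring cells held 81.4% of the members' 140 Sprr1a UMIs and 64% of their 25 Cldn4 UMIs, but 13.8% of their Krt8 UMIs. All 6 genes were present together in 2 cells, 5 genes in 9, 4 genes in 52 and 3 genes in 20. As these genes chose the members, their levels are a description.

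Detection depends on depth, so each cell was also thinned to 4500 UMIs, with fibroblast barcodes (at least 10 UMIs of Col1a2, Col3a1 and Dcn and at most 3 of the epithelial genes) as the cell type that should lack the keratins. Of the 82 high-score cells without the immune-marker barcode described below, 93.9% held Krt8 after thinning, against 61.0% of the other 90%, 82.6% of AT1 cells and 7.37% of fibroblast barcodes. Cldn4 was held by 7.32% of high-score cells, 15.6% of AT1 cells and 0.567% of fibroblast barcodes. Without thinning, Krt8 was found in 98.8% of these high-score cells and in 23.5% of fibroblast barcodes. The median depth was 14535 UMIs in these high-score cells and 15821.5 in fibroblast barcodes.

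The promoters of Sprr1a and Cldn4 are shown because these are the score genes confined to few cells and because both hold the AP-1 motif TGANTCA, searched on both strands. The sequences are RefSeq promoters of GRCm38.p6 from 250 bases before to 50 after the gene start, 5′ to 3′ on the gene's strand, with the AP-1 matches in capitals. Sprr1a lies at chr3:92485832-92486131 on the minus strand, with matches 146 and 116 bases before the start. Cldn4 lies at chr5:134946885-134947184 on the minus strand, with matches 240 and 158 bases before it. The motif was found in 7.81% of 32851 promoters and in 2 of the 5 score genes that had a promoter in the table.
Sprr1a: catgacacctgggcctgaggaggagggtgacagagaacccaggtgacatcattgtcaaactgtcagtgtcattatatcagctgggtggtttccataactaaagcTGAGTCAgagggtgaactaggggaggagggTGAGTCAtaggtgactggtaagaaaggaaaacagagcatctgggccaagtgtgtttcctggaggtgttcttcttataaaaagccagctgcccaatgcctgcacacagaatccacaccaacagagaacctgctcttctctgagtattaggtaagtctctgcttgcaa
Cldn4: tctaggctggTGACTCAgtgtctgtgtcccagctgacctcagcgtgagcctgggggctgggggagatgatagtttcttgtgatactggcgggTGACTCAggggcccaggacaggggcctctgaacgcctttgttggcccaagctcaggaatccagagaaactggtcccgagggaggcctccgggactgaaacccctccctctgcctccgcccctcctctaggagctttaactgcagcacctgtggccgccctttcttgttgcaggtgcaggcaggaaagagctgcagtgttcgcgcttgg

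The label of a transitional cell held only in part. Sftpc, which encodes surfactant protein C, remained at 94111 CPM in the high-score cells, against 101474 CPM in the other 90% and 67889 CPM in AT1 cells. Its level per cell ran from 2354 to 170003 CPM around a median of 91196 in the high-score cells, and the median was 98359 in the other 90%. The groups overlapped, but 14 of 83 high-score cells (16.9%) lay below 53485 CPM, the 10th percentile of the other 90%. The median was 64679 CPM in the 8 highest-scoring cells and 97696 CPM in the other 75, and with the top 5% as members the ratio of summed Sftpc was 0.845. Fibroblast barcodes, which should not express it, had a median of 3164 CPM. All but 4 of the high-score cells were above 10000 CPM, and the cells are named here by their score.

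**Figure D2:**
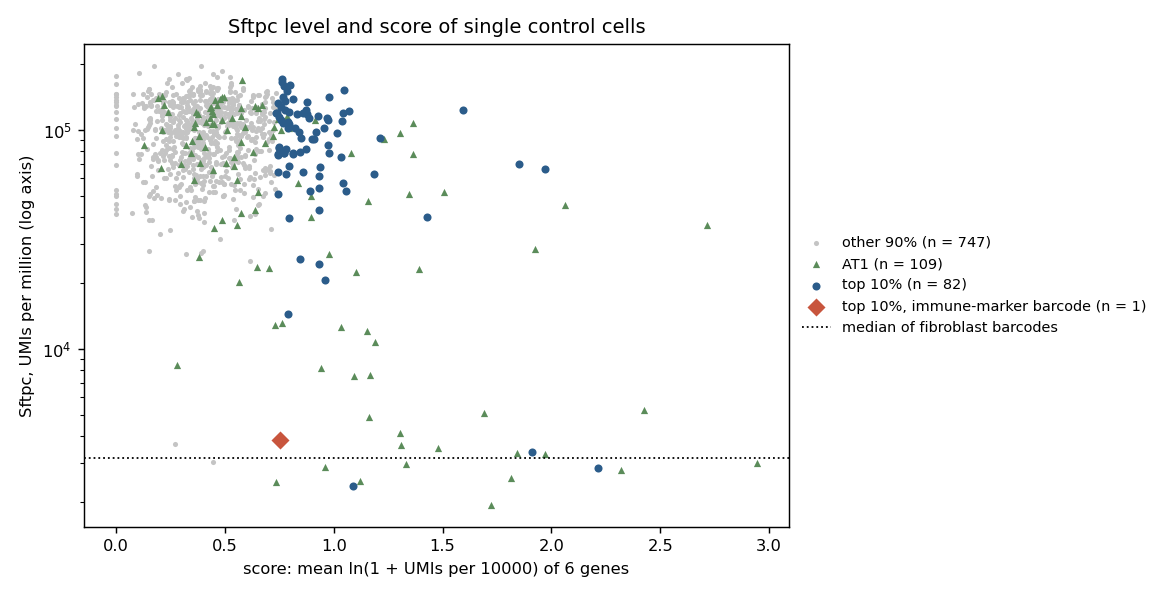
Sftpc level (vertical axis, CPM, log axis) against the 6-gene score in single control cells. Of the high-score cells, 79 lie above 10000 CPM among the other 90%, while 3 of them and the immune-marker barcode lie near the median of fibroblast barcodes (dotted line, 3164 CPM).

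The AT2 marker list as a whole was slightly lower. Of its 12 genes, 10 had an interval of the ratio below 1 and 2 above it, none passed 2-fold in either direction, and the median log2 ratio was -0.30, against 0.05 over all 7696 genes tested. Abca3, the lipid transporter of lamellar bodies, stood at 319 CPM against 554 (ratio 0.576, 0.520 to 0.638). The phosphate transporter Slc34a2 had a ratio of 0.697, the lipid-remodelling enzyme Lpcat1 0.714 and the transcription factor Etv5 0.718. Sftpd, which encodes a collectin of innate defence, was higher (3013 against 2400 CPM, ratio 1.26), as was the surfactant-processing protease Napsa (ratio 1.10). Lipid genes also differed in direction. Fatty acid synthase Fasn had a ratio of 0.608 (0.573 to 0.645) and the desaturase Scd1 0.707, whereas Fdps of sterol synthesis had a ratio of 1.23. Of 10 genes of sterol and fatty acid synthesis, 2 had intervals above 1 and 4 below it.

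A single member held macrophage markers and almost no epithelial transcripts. The cell ranked 73 by score held 101 UMIs of the immune marker list, among them 27 of Fcer1g, 23 of Tyrobp, 21 of C1qb and 20 of Cd68, while Cd3e and Cd79a of lymphocytes were at 0. It held 1 UMI of Krt8 and 0 of Epcam, and it reached its score through 74 UMIs of Lgals3, a gene that macrophages also express at high level. This barcode contributed 1138 of the members' 1156 UMIs of Wfdc17, 164 of 168 of Ccl6, 108 of 109 of Ccl12, 89 of 91 of Gpnmb and 234 of 255 of Ccl8. With it the ratios to the other 90% were 70.6, 58.3, 85.9, 46.4 and 12.8. Without it they were 1.12, 1.41, 0.803, 1.04 and 1.07. List counts and medians are over all 83 cells unless 82 is named. Ratios of the named higher and lower genes in the following paragraphs are over the 82 remaining cells, and ratios without a gene's own highest cell leave only that cell out of the 83.

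Among genes that the rule did not use, 114 of 7696 tested were at least 2-fold higher in the high-score cells than in the other 90% (1.48%) and 77 were at most 0.5-fold (1.00%). By the counting interval alone, 13.0% of genes lay above 1 and 6.57% below it. Without the immune-marker barcode, 98 genes were at least 2-fold higher (1.28%) and 76 at most 0.5-fold (0.989%), and 12.8% of 7683 genes had intervals above 1 and 6.38% below it. Few of the higher genes were shared by most of the cells. The median gene of the 114 was found in 23.5 members, 53 stayed at least 2-fold higher when the gene's own highest cell was left out, and in 15 a single cell held more than 50% of the UMIs.

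Of the 12 named higher genes, Anxa1 and Areg were found in the most high-score cells. Areg, an epidermal growth factor receptor ligand, had UMIs in 49 of 83 high-score cells and in 131 of 747 others, at 131 CPM against 21.8 (ratio 5.99, 4.87 to 7.35). Anxa1, a calcium-dependent phospholipid-binding protein with anti-inflammatory action, had UMIs in 76 of 83 cells, at 325 CPM against 62.3 (ratio 5.21, 4.59 to 5.91). The highest cell held 7.50% of the Areg and 8.56% of the Anxa1 UMIs. After thinning, Areg was found in 35.4% of the high-score cells, 7.36% of the others, 18.3% of AT1 cells and 0.425% of fibroblast barcodes. Anxa1 was found in 72.0%, 19.5% and 59.6%, and in 58.8% of fibroblast barcodes, which express it themselves.

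The transitional-state list without the score genes followed the same direction. Of its 12 genes, 7 had enough UMIs, all 7 with intervals above 1. Over the 82 cells 4 of them were at least 2-fold higher, with a median log2 ratio of 1.01, and over 83 cells 3, with a median of 0.99. The median ranged from 0.25, with at most 2 stromal gate UMIs, to 1.57, after thinning. Over the same 82 cells Tnfrsf12a, the receptor of the cytokine TWEAK, stood at 225 CPM against 69.9 (ratio 3.22, 2.79 to 3.70). The growth factor Hbegf had a ratio of 2.09 and Clu, a secreted chaperone, 2.02. The keratin Krt7 had a ratio of 1.92. Itgb6, the epithelial integrin subunit that activates TGF-beta, was counted only 22 times but had a ratio of 3.35 (1.95 to 5.56). Ndrg1, a hypoxia-induced gene, was nearly absent, with 4 UMIs in 4 cells. Keratins of basal cells were not seen, as Krt5, Krt14 and Krt17 were at 0 UMIs in the high-score cells, which allows up to 2.41 CPM for each.

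The other named higher genes included stress and metabolic genes. Atf3, a stress-induced transcription factor, stood at 54.0 CPM against 11.3 (ratio 4.78, 3.49 to 6.50) and was found in 27 cells. Trib3, induced in the integrated stress response, had a ratio of 3.91 (2.82 to 5.37) and the serine synthesis enzyme Phgdh 4.51 (3.11 to 6.48). Srxn1, which repairs oxidized peroxiredoxins, had a ratio of 4.33 (3.38 to 5.52), although 1 cell gave 31.7% of its UMIs and the ratio without that cell was 3.02. Ndnf, a secreted neurotrophic factor, had a ratio of 5.09 (4.02 to 6.43) and Cox6a2, a cytochrome c oxidase subunit, 3.65 (2.95 to 4.50). Among 7 ER stress genes tested, 3 were at least 2-fold higher over all 83 cells, namely Trib3, Asns and Ddit3, and 2 over the 82 cells, where Ddit3 had a ratio of 1.97. The list's median log2 ratio was 0.37 over all 83 cells but -0.11 with at most 2 stromal gate UMIs.

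The Srxn1 promoter is shown because, among the named higher genes, it held both the AP-1 motif and the antioxidant response element TGACNNNGC. The Sprr1a promoter above also held both, with its antioxidant response element, read on the opposite strand, overlapping the AP-1 match farther from the start. The Srxn1 promoter lies at chr2:152105274-152105573 on the plus strand of GRCm38.p6. Its AP-1 matches lie 102 and 45 bases before the start. Its 1 antioxidant response element lies after the start, read on the opposite strand, and all matches are in capitals. The antioxidant response element was found in 12.4% of all promoters, in 1 of the 5 score genes and in 2 of the 9 higher genes with a promoter, Phgdh and Srxn1, against 3 of the 11 lower genes, Dock1, Lyz1 and Soat1. AP-1 was found in 1 of 9 higher and 1 of 11 lower genes. A CHOP-ATF element, TGATGNAA, was found in 3.97% of promoters, in 2 of the 9 higher genes, Atf3 and Trib3, and in 0 of the 11 lower genes. A match is a description of the sequence and does not show that a factor binds.
Srxn1: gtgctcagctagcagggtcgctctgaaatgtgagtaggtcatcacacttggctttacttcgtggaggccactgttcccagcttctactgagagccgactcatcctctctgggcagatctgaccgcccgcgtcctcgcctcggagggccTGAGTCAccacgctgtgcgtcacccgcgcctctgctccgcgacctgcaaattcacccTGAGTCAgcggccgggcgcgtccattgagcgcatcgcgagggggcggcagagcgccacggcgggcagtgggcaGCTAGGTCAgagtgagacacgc

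The chemokine genes Cxcl2 and Cxcl5 were high in a few cells only. Cxcl2 had a ratio of 15.8 (10.9 to 23.1), but the cell ranked 28 held 75% of its 84 UMIs. The same cell held 65.1% of the 312 UMIs of Cxcl5, whose ratio of 4.03 was 1.42 without it, and 2 cells held 50% of the Cxcl5 UMIs of the other 90%. Il4i1, an amino acid oxidase, had a ratio of 11.7, and the cell ranked 57 held 67.6% of its 105 UMIs. These values describe single cells rather than the group. Pglyrp1, an antibacterial protein, was found in 30 cells at 152 CPM against 42.3 (ratio 3.60, 3.02 to 4.27). Among 8 NF-kB targets tested, 3 were at least 2-fold higher, namely Cxcl2, Cxcl5 and Cxcl1. Icam1 had UMIs in 81 cells and a ratio of 1.59, but its share in fibroblast barcodes was not taken.

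**Figure D3:**
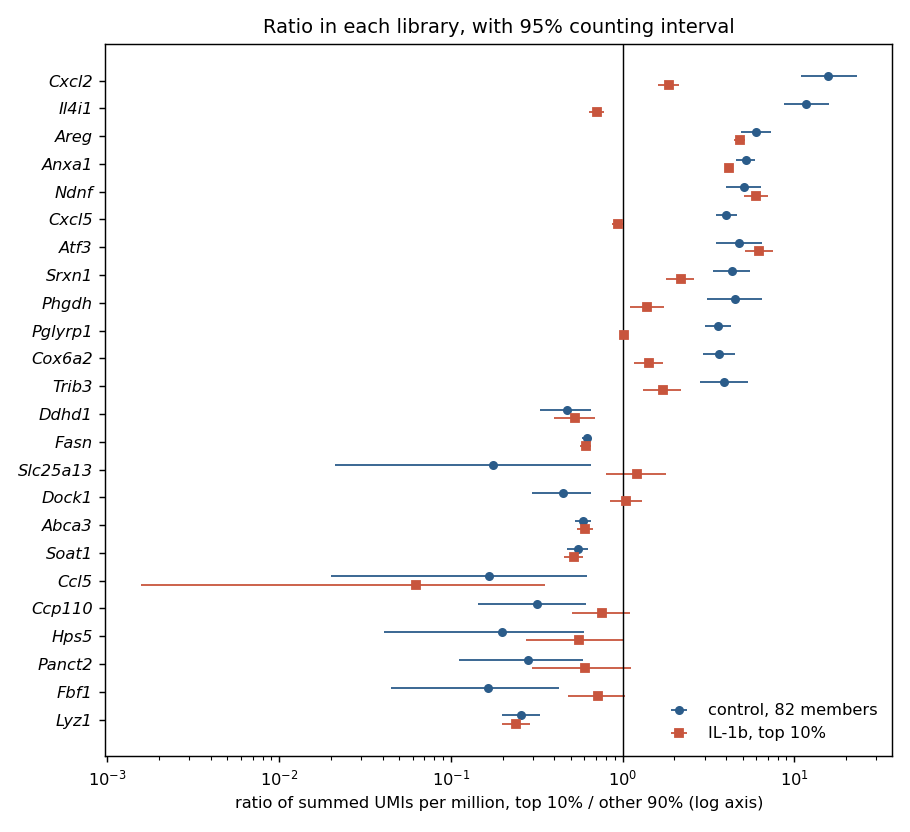
Ratio of summed levels (log axis, with 95% counting intervals) for named genes in the 82 high-score control cells over the other 90% and in the top 10% of IL-1b cells over their other 90%. Areg, Anxa1, Ndnf and Atf3 lie above 4 in both libraries, whereas Il4i1 and Cxcl5 lie above 1 in the control library only.

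Few named genes were lower at good depth. Lyz1, a lysozyme of some AT2 cells, stood at 54.0 CPM against 210 (ratio 0.258, 0.198 to 0.329), but 6 cells held 50% of its UMIs in the other 90%. Without Krt19 in the score its direction turned, with a log2 ratio of 0.062. Soat1, which esterifies cholesterol, had a ratio of 0.547 (0.476 to 0.625) and was found in 720 of the 747 other cells. Dock1, a guanine nucleotide exchange factor, had a ratio of 0.449 (0.298 to 0.652). The phospholipase Ddhd1 had a ratio of 0.473 (0.330 to 0.659). Abca3 and Fasn, given above, were the remaining lower genes with more than 20 UMIs in the high-score cells. Fbf1, Panct2, Hps5, Ccp110 and Slc25a13 had between 2 and 9 UMIs there. Of the 106 Ccl5 UMIs in the other 90%, 1 cell held 89.6%.

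The p53 target list showed how much 3 cells could weigh. Over 13 genes and 82 cells, 3 were at least 2-fold higher, namely Gdf15, Plk2 and Cdkn1a, 7 had intervals above 1, and the median log2 ratio was 0.46. Cdkn1a, the cell cycle inhibitor p21, stood at 240 CPM against 99.4 (ratio 2.42, 2.12 to 2.75). The epithelial cells ranked 1, 3 and 9 had Sftpc below 10000 CPM, a limit set after the values were seen, and held 33, 46 and 9 of the 294 Cdkn1a UMIs. Without them and the immune-marker barcode the ratio was 1.74 (1.49 to 2.02). The calcium-binding protein S100a6 went from 2.53 to 1.71 and the p53 target Phlda3 from 1.77 to 1.02. S100a6 was found in 75.6% of the 82 high-score cells and 77.4% of the others, and after thinning in 56.1% and 43.2%. Cdkn1a was found in 73.2% and 59.0%, and after thinning in 45.1% and 32.0%. Fibroblast barcodes held S100a6 in 99.3% and Cdkn1a in 89.5%, and the 3 cells held 127 of the 371 S100a6 UMIs. Areg (5.95), Anxa1 (4.86) and Atf3 (4.68) were the ratios of other named genes without these cells.

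These 3 cells had 14332, 7970 and 7221 UMIs, and together they held 13 of the 25 Cldn4 UMIs of the members. Their Sftpc level was 2879 CPM and their Lyz2 level 508 CPM, against 24099 CPM of Lyz2 in the other 90%. Cdkn1a stood at 2981 CPM, S100a6 at 4302 CPM and Lgals3 at 5589 CPM. Clic5, a chloride channel protein of AT1 cells, had 17 UMIs (576 CPM against 10.6). Krt8 itself was not extreme, with 13 UMIs (440 CPM, 1.88 times the other 90%, 0.997 to 3.21). Barcodes with Sftpc below 10000 CPM made up 3.66% (0.761 to 10.3) of the 82 high-score cells, 0.268% (0.0324 to 0.964) of the other 90% and 18.3% (11.6 to 26.9) of AT1 cells. The 3 high-score cells, ranked 1, 3 and 9, held 11, 4 and 4 UMIs of the stromal gate genes.

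**Figure D4:**
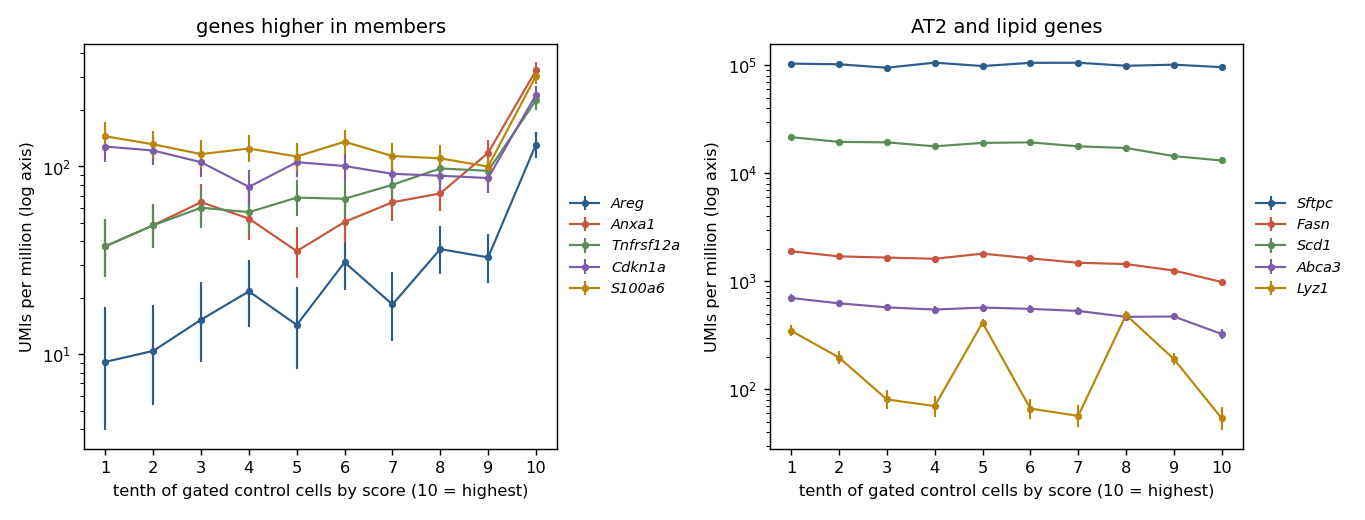
Levels (CPM, log axis, bars are 95% counting intervals) of named genes in gated control cells ordered by score into 10 equal bands, with the immune-marker barcode left out of the highest. Areg and Anxa1 are highest in the highest band, S100a6 and Cdkn1a exceed their lowest-band level only in the highest band, and Sftpc stays between 94684 and 105501 CPM.

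Ordering all gated control cells into 10 bands by score showed which genes followed it and which did not. Areg went from 9.12 CPM in the lowest band to 32.8 in the ninth and 131 in the highest. Tnfrsf12a went from 37.6 to 94.8 and 225 CPM. Anxa1 went from 37.6 to 118 and 325 CPM. Each was highest in the highest band, with uneven steps below it. Cdkn1a stood at 128 CPM in the lowest band, 86.8 in the ninth and 240 in the highest, and S100a6 at 145, 99.9 and 303 CPM. Fasn went from 1897 to 986 CPM, Scd1 from 21569 to 13120 and Abca3 from 701 to 326, while Sftpc went from 103326 to 95867. The lowest band was shallower, with a median of 9388 UMIs per cell.

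Against AT1 cells the high-score cells were far apart in AT1 genes. The gate had set low UMIs of its AT1 genes for the high-score cells and higher UMIs for the AT1 cells. The direction of AT1 markers expressed together with the gate genes was therefore partly set by the rule, and their levels are a description. Most of these AT1 cells held much Sftpc, with a median of 70379 CPM per cell and 20 of 109 below 10000 CPM. Of 4193 genes tested, 219 were at most 0.5-fold (5.22%) and 33 at least 2-fold higher (0.787%), with a median log2 ratio of -0.14 over all genes. By the counting interval, 8.42% of these genes lay above 1 and 24.1% below it. All 11 AT1 markers tested had intervals below 1, 9 of them at most 0.5-fold, with a median of -1.81. Ager, the receptor that marks AT1 cells, stood at 1004 CPM against 3530 (ratio 0.284, 0.268 to 0.302). Clic5 had a ratio of 0.149 and the basement membrane collagens Col4a3 and Col4a4 0.0937 and 0.158. The secretory lipid-binding protein gene Sec14l3 (0.0994), the elastic fibre protein Fbln5 (0.114) and the semaphorin Sema3e (0.0829) were spread over 50 to 80 of the 109 AT1 cells. Tagln, Fn1, Ctgf and Tpm2 were also far lower, but 1 AT1 barcode held between 67.7% and 96.6% of their UMIs. Sums of other markers also differed in this contrast. The airway list summed to 155 CPM in the high-score cells and 699 CPM in AT1 cells, with both genes tested at most 0.5-fold. Its median per cell went the other way, at 75.04 CPM in the high-score cells and 60.46 CPM in AT1 cells. The 90th percentiles were 234 and 666 CPM, and the highest cells reached 2699 and 17698.5 CPM. The difference in airway sums therefore rests on few AT1 cells. The cycling list summed to 89.1 and 181 CPM, but the cell cycle limit was set for the high-score cells only. Of the 109 AT1 cells, 6 exceeded that limit. Doublet scores over the 95th percentile of the library were found in 18 of 109 AT1 cells and 1 of 83 high-score cells. Without these cells 189 genes were at most 0.5-fold and 32 at least 2-fold higher. The 219 lower genes became 111 without the highest 10% of UMIs and 71 after thinning. With AT1 cells taken without the epithelial gate, 1096 genes were at most 0.5-fold and 166 at least 2-fold higher. The part of the airway and cycling markers in the contrast was not tested.

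Against the other 90%, 8 of 12 AT1 markers had intervals above 1 but only Clic5 was at least 2-fold higher (3.33, 2.29 to 4.77, over 82 cells, and 2.07, 1.29 to 3.18, without the 3 cells of low Sftpc, which held 17 of its 43 UMIs), and the median log2 ratio was 0.38. Over the 82 cells the membrane protein Emp2 had a ratio of 1.75, Gprc5a 1.77 and Ager 1.15. The AT2 list against AT1 cells had 9 of 12 intervals above 1 and a median log2 ratio of 0.49, with a range of 0.050 to 2.90 over the alternatives. The lowest value came with at most 2 stromal gate UMIs, which left 3 AT1 cells, and the highest against the 20 AT1 cells with Sftpc below 10000 CPM. Lcn2, an iron-sequestering defence protein, stood at 4096 CPM against 1724 in AT1 cells (ratio 2.38, 2.28 to 2.48) and at 3686 CPM in the other 90%. Of the 8 transitional-state genes tested against AT1 cells, 5 were at most 0.5-fold, while Areg (ratio 1.42, 1.14 to 1.76) and the stress-induced Nupr1 (1.26, 1.18 to 1.34) had intervals above 1 and Tnfrsf12a had a ratio of 1.13 (0.965 to 1.32). Krt7 stood at 127 against 478 CPM and Clu at 173 against 731 CPM.

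**Figure D5:**
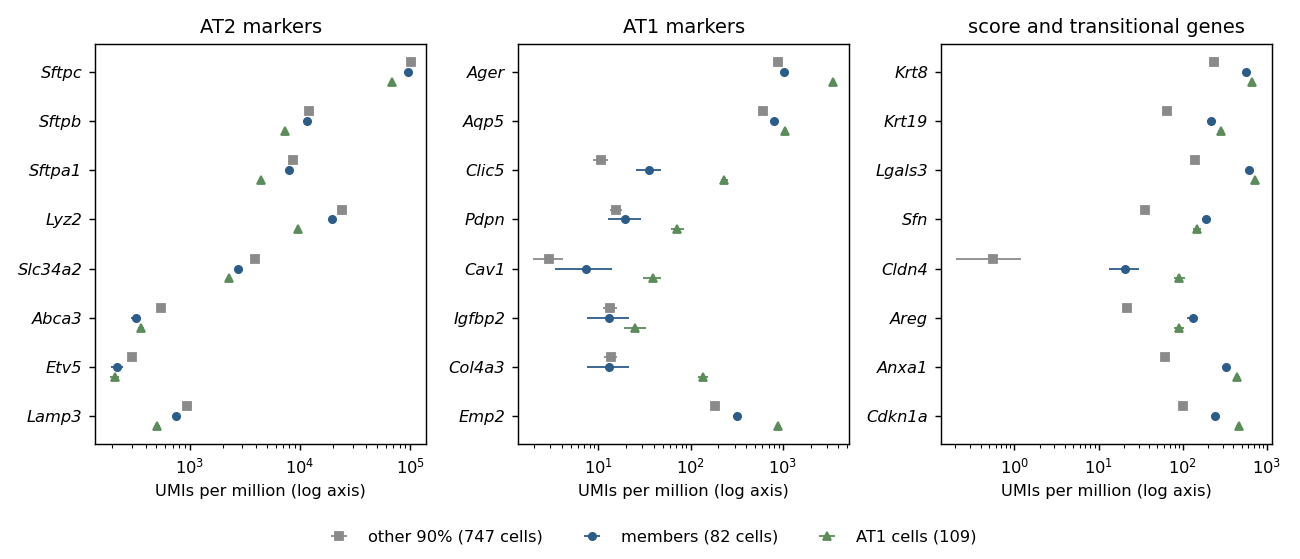
Summed levels (CPM, log axis, bars are 95% counting intervals) of AT2, AT1, score and transitional genes in 82 high-score control cells, the other 90% and AT1 cells. Krt8 of the 82 high-score cells (570 CPM) lies above that of the other 90% (235 CPM) and below that of AT1 cells (663 CPM).

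The remaining lists were compared with the other 90%. Over all 7696 genes, 13.0% had intervals above 1, 6.57% below it and 1.48% were at least 2-fold higher. The median log2 ratio over all genes was 0.05. Of 4 other keratins and claudins tested, 2 had intervals above 1, with a median log2 ratio of 0.33. Of 10 S100 proteins and annexins, 9 had intervals above 1 and 4 were at least 2-fold higher (S100a6, S100a14, Anxa1 and Anxa5), with a median log2 ratio of 0.62. Of 12 interferon response genes, 9 had intervals above 1 and 3 were at least 2-fold higher (the chemokine Cxcl16 at 2.34, and Ifit1 and Ifit3, of which Ifit1 had 57.7% of its UMIs in 1 cell), with a median of 0.68, which was 0.62 over the 82 cells. Glycolysis and hypoxia genes had 9 of 15 intervals above 1, 0 past 2-fold and a median of 0.28. Of 11 actin cytoskeleton genes, 8 had intervals above 1, with a median of 0.26 and a highest ratio of 1.97 (Tmsb10). Of 6 TGF-beta and YAP targets, the integrin Itgav alone passed 2-fold (2.01), with a median of 0.20. Of 10 immediate early and heat shock genes, only Atf3 passed 2-fold and the median was 0.24. Of 10 epithelial transcription factors, 3 had intervals above 1 and 2 below it, with Klf6 at 1.82 and Id2 at 0.651. The 7 MHC class II genes had 3 intervals above 1 and a median of 0.04, near that of all genes.

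Among the stromal, airway and cycling markers with enough UMIs to test, none was higher in the high-score cells by the counting interval. No endothelial marker was tested. Both groups had passed the stromal and cell cycle gates, so their levels of those markers are a description. The stromal list summed to 771 CPM in the high-score cells and 820 CPM in the other 90%, led by Mgp at 533 and 545 CPM, and of its 7 genes tested 0 had an interval above 1 and 1 below it, Col6a1 (ratio 0.766, 0.625 to 0.930). The airway list summed to 155 and 185 CPM, with Scgb1a1 leading at 87.5 and 99.2 CPM and Scgb3a1, Foxj1, Bpifa1, Reg3g, Muc5b and Krt5 at 0 in the high-score cells, and of the 2 airway genes tested Cyp2f2 had an interval below 1 (ratio 0.779, 0.614 to 0.976). Of 5 endothelial markers, Cdh5, Kdr and Cldn5 were at 0, Pecam1 had 2 UMIs and Tek 1. The cycling list summed to 89.1 and 85.8 CPM. The immune list summed to 97.1 CPM over 83 cells and 16.4 CPM over 82, against 12.4 CPM. The median share of mitochondrial UMIs was 3.90% in the high-score cells and 4.29% in the other 90%, and the median depths were 14584 and 14024 UMIs. What share of these lists came from free RNA was not tested.

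The same 6-gene score was then read in the IL-1b library. Of 2031 IL-1b cells that passed the gates, 806 (39.7%, 37.5 to 41.9) lay at or above the control cutoff, and the median score was 0.657. As each condition is 1 culture, an effect of IL-1b and any other difference between the cultures cannot be told apart. The IL-1b cells at or above the cutoff had more Cldn4 (117 against 20.5 CPM) and Sprr1a (254 against 114 CPM) than the 82 control high-score cells and less Sftpc (60144 against 95867 CPM). Sftpc below 10000 CPM was found in 72 of these 806 cells (8.93%, 7.06 to 11.1). Of 7867 genes tested, 553 were at least 2-fold higher in the IL-1b cells (7.03%) and 112 at most 0.5-fold (1.42%), with a median log2 ratio of 0.12 over all genes. Intervals lay above 1 for 19.8% of them and below 1 for 10.7%. The UMI minimum for testing was counted over both groups together, with 9564774 UMIs in the IL-1b cells and 1222490 in the control cells. Genes low in the control cells could thus enter through the IL-1b cells more easily than the reverse. The counts of higher and lower genes can therefore not be compared directly.

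Between IL-1b and control high-score cells, NF-kB targets and glycolysis genes were mostly higher in the IL-1b cells and lipid synthesis genes mostly lower. Markers of other cell types also differed. The stromal list summed to 1616 CPM in the IL-1b cells against 771 CPM, and the immune list to 48.6 against 16.4 CPM. The airway list summed to 878 against 158 CPM, with 5 of 6 genes tested at least 2-fold higher. Some of these genes had no UMIs in the control cells and entered through the IL-1b cells. Per cell, the airway list had a median of 107 CPM in the IL-1b cells and 79.4 CPM in the 82 control cells. The highest IL-1b cell reached 216456 CPM, so the sums describe few cells. The cycling list summed to 93.7 against 86.7 CPM. Their part in the contrast was not tested. Of 10 NF-kB targets, 6 were at least 2-fold higher, with a median log2 ratio of 1.36, and Lcn2 stood at 15661 against 4175 CPM. Of 16 glycolysis and hypoxia genes, 9 were at least 2-fold higher, with a median of 1.08, and Ndrg1 stood at 52.3 CPM in the IL-1b cells against 3.27 CPM. Between the control high-score cells and the other 90%, 15 glycolysis and hypoxia genes and 8 NF-kB targets had enough UMIs to be tested. The remaining genes of these lists entered here through the larger IL-1b group, which can raise the counts of higher genes. Of 10 sterol and fatty acid synthesis genes, 9 had intervals below 1, with a median of -0.93, and Scd1 stood at 4946 against 13120 CPM. Bex2 was nearly gone, at 15.2 against 563 CPM. Tnfrsf12a had a ratio of 0.795 and Atf3 of 0.616.

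The comparison was repeated with the top 10% of the same score within the IL-1b library, in cells that had no part in choosing the control members. Of 9661 genes tested, 282 were at least 2-fold higher in the IL-1b top 10% (2.92%) and 164 at most 0.5-fold (1.70%). Intervals lay above 1 for 2424 of these genes and below 1 for 717, with a median log2 ratio of 0.15 over all genes. Markers of other cell types moved as well. The airway list summed to 163 CPM against 742 CPM in the IL-1b other 90%, with 4 of 6 genes tested at most 0.5-fold. Its median per cell was 80.7 CPM in the top 10% and 120 CPM in the other 90%. The highest cell of the other 90% reached 216456 CPM, so the difference in sums rests on few cells. The immune list summed to 67.0 against 42.3 CPM. The stromal list summed to 1677 against 1570 CPM, with 3 of 6 intervals above 1. Their part in the contrast was not tested. Of the 12 higher genes named in the control without the immune-marker barcode, 10 were above 1 and 5 at least 2-fold higher in the IL-1b library, namely Areg (4.82, 4.47 to 5.19), Anxa1 (4.17, 3.96 to 4.38), Ndnf (5.96), Atf3 (6.24) and Srxn1 (2.17). Il4i1 and Cxcl5 were not above 1 (0.708 and 0.936). Of the 12 lower genes named without the barcode, 2 were above 1 in the IL-1b library, Dock1 (1.05) and Slc25a13 (1.21), and 2 were at most 0.5-fold, Lyz1 (0.241) and Ccl5 (0.0625). Among the rest, Abca3 had ratios of 0.588 in the control and 0.606 in the IL-1b library, Fasn 0.619 and 0.610 and Soat1 0.547 and 0.519.

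Over the 7634 genes tested in both libraries, 97 were called higher in the control, 146 in the IL-1b library and 34 in both, which is 35.1% of the control and 23.3% of the IL-1b genes. Over all genes tested in each library, 1.28% were called higher in the control (82 cells) and 2.92% in the IL-1b library. Fewer lower genes were shared, with 74 called in the control, 82 in the IL-1b library and 10 in both, which is 13.5% and 12.2%. Over all genes tested in each library, 0.989% and 1.70% were called lower. The shared higher genes included Areg, Anxa1, Anxa5, Cdkn1a, Clic5, Clu, Cxcl16, F3, Hbegf, Itgav, Plk2, S100a6, S100a14 and Tnfrsf12a. The steps in the IL-1b library were larger for several of them, with S100a6 at 7.98, Plk2 at 5.72 and Clic5 at 5.40, against 2.53, 2.61 and 3.33 over the 82 control cells. The transitional-state list had 10 of 11 genes at least 2-fold higher there, with a median log2 ratio of 2.02, against 0.15 over all genes tested there. The AT1 list had 7 of 11 genes at least 2-fold higher there, with a median of 1.10 against 0.38 in the control. The AT2 list had a median of -0.73 in the IL-1b library against -0.30, and Sftpc ratios were 0.571 and 0.927.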

How the data were processed

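Single-cell RNA sequencing libraries of control and IL-1b-treated organoids, 1 each, were analysed. The authors deposited raw counts of UMIs per gene and barcode for 27998 genes, made with Cell Ranger. The labels name GRCm38 and mm9 as builds, and all 294 gene IDs looked up matched GENCODE M21 on GRCm38. The authors' filters and Scanpy 1.3.6 steps are not in the files. UMIs were summed over cells and scaled to CPM, with exact Poisson intervals, exact conditional intervals of ratios and Clopper-Pearson intervals of shares, all at 95% (scipy 1.17.1). Genes with at least 100 UMIs over both groups, without score and gate genes, counted as called at 2-fold or 0.5-fold. For a gene at 0 UMIs the limit is 3 UMIs per group. Named genes are the 12 highest and 12 lowest per control comparison, ranked by the interval limit nearest 1, without mitochondrial, ribosomal and predicted genes. Members and lists were chosen with earlier results of these data known. Doublets were not removed: scrublet (scanpy 1.11.5) scored over 0.7 in 2 control cells, and leaving out the highest 5% of scores was an alternative. Ratios were checked on simulated data. Of the lists' genes, 1 was absent from the files. The definition of fibroblast barcodes, the immune-marker limit of 50 UMIs and the Sftpc limit of 10000 CPM were set after seeing the data. Of the alternatives, 19 were planned and 6 added.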

Additional observations from a re-analysis of the deposited data

Results flagged for a closer look

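Il4i1 and Ly6i were higher in the high-score cells of the control library and lower in the top 10% of the IL-1b library. Il4i1 had a ratio of 11.7 to the other 90% in the control (82 cells) and 0.708 in the IL-1b library, and Ly6i, of the Ly6 family of membrane-anchored proteins, had ratios of 2.996 and 0.742. In the control 1 cell held 67.6% of the Il4i1 UMIs. With 1 library per condition the difference was not tested.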

How the results depend on the processing

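No paired analysis was possible because each condition is 1 library. Of the alternatives, 19 were planned and 6 were added after seeing the data. The 114 genes at least 2-fold above the other 90% became 225 with the top 5% of cells as members, 41 with the top 20%, 66 after thinning, 71 with totals without surfactant, mitochondrial and ribosomal genes, 51 with at most 2 stromal gate UMIs, 59 with AT1 gate genes at 0, 530 at 1.5-fold, 424 at a minimum of 20 UMIs, 68 without Sprr1a in the score and 53 without each gene's highest member. The 77 genes at most 0.5-fold became 259, 16, 415 and 517 for the top 5%, the top 20%, 1.5-fold and 20 UMIs. Against AT1 cells, the 33 higher genes became 19 with the stromal limit, 122 at 1.5-fold, 157 at 20 UMIs, 166 with AT1 cells taken without the epithelial gate and 189 with AT1 cells of Sftpc below 10000 CPM. The 219 lower genes became 71 after thinning, 111 without the highest 10% of UMIs, 2 with the stromal limit, which left 3 AT1 cells, 617 at 1.5-fold, 812 at 20 UMIs and 1096 without the gate. The share of IL-1b cells at or above the cutoff (39.7%) was 26.8% for the top 5%, 54.6% for the top 20%, 50.3% with standardized genes, 35.4% after thinning, 36.0% with the reduced totals, 34.1% with the stromal limit, and 41.9%, 35.8%, 35.0% and 44.3% without Krt19, Cldn4, Sfn or Lgals3 in the score.

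Log2 ratios to the other 90% that changed sign were mostly those of the immune-marker barcode. Wfdc17, Ccl6, Gpnmb and Ccl8 had -2.63, -2.34, -1.49 and -1.30 for the top 5%. Wfdc17, Ccl12, Ccl6, Gpnmb and Ccl8 had -3.19, -3.76, -2.43, -2.59 and -1.07 with standardized genes, -3.06, -3.88, -2.55, -2.72 and -1.19 with the reduced totals, -2.89, -3.78, -2.45, -2.62 and -1.09 without Sprr1a, and -3.20, -3.77, -2.44, -2.60 and -1.22 without Lgals3. Ccl12 had -0.32 without that barcode, and Ccl12 and Gpnmb had -0.28 and -0.91 without the members of Sftpc below 10000 CPM. Wfdc17 and Cxcl5 had -0.48 and -0.82 after thinning, and Cxcl2 -0.90 with a summed score. Il4i1, Cxcl5 and the ER stress list median had -0.47, -0.87 and -0.11 with the stromal limit, and Lyz1 0.062 without Krt19. Against AT1 cells, Ccl8 had -0.11 for the top 5%, Cxcl2 -1.39 with a summed score and -0.071 without Sprr1a, Wfdc17 and Tpm2 -0.17 and 1.92 after thinning, Tagln 0.40 with the cutoffs of the study's methods and 0.18 without the highest 10% of UMIs, Bcl2a1b and Scgb1a1 -0.92 and 0.21 with the stromal limit, and Scgb1a1 0.45 against AT1 cells of low Sftpc. Beyond the removal of the barcode itself, the cause was not tested. Thinning kept 44 of the 83 members and the stromal limit 17.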
